A study of Mus musculus with 8 samples.

Results

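Semaphorins, plexins and neuropilins form one signalling system of ligands, receptors and co-receptors, and the mouse genome table used here holds 31 of their genes, with 20 semaphorins, 9 plexins and 2 neuropilins. ATAC-seq marks open chromatin by where a transposase can insert, and the deposited data are peak lists of such sites. A peak was assigned to these genes when the protein-coding RefSeq gene nearest to its summit, within 100 kb, had a symbol beginning with Sema or Plxn, or was Nrp1 or Nrp2. By this rule 265 of 65318 peaks of the day 7 (D7) GLI1 list, 231 of 59488 of the D7 control list and 168 of 48177 of the day 5 (D5) list were members, which makes 664 of 172983 peaks in all. Overlapping peaks of one list were merged into regions, which gave 180 of 43043 regions with GLI1, 145 of 38771 in D7 control and 149 of 39436 at D5.

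The samples were mouse embryonic stem cells of the GLI1-FTA line, made in the A2Lox.cre strain, differentiated into cardiac progenitors. The D7 GLI1 cells received 500 ng/ml doxycycline for 48 hours, between D5 and D7, to switch on GLI1, and comprised 3 libraries. The D7 control (3 libraries) and D5 control (2 libraries) cells carried the same inducible construct and received no doxycycline, so an effect of doxycycline itself and one of GLI1 cannot be told apart. All groups came from 1 line, and each group is represented by 1 pooled peak list. The name of the D7 control list gives no day, so that its cells were those of D7 was taken from the name's word for control and its match in form with the GLI1 list. With 1 list per group there is no replicate check, no test was possible and no p-value is given; intervals of shares are 95% Wilson intervals and those of reads exact Poisson ones, and both cover counting error only.

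Semaphorins are secreted or membrane-bound guidance cues, and plexins are their receptors, which act on small GTPases and the cytoskeleton inside the cell. Most class 3 semaphorins are secreted and signal through a plexin with a neuropilin as the ligand-binding co-receptor, whereas the membrane-bound classes bind plexins directly. In the developing heart and vessels the system steers endothelial sprouts and cardiac neural crest cells and takes part in septation of the outflow tract, and neuropilins also bind vascular growth factors of the VEGF family.

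RefSeq start windows (GRCm38.p6, which is mm10), spanning 250 bases before to 50 after a gene start, were given for 26 of the 31 genes, in 37 windows. Windows were not used for Sema6a, Plxna1, Plxna4, Sema3b and Sema3f. 5 windows are printed with every CG dinucleotide in capitals, since the windows that were open and those that were not differed in CG content. They are Sema3c (chr5:17574566-17574865, plus strand), Sema3e (chr5:14025026-14025325, plus strand), Sema3g (chr14:31217623-31217922, plus strand), Sema3a (chr5:13396534-13396833, plus strand) and one start of Sema4d (chr13:51756634-51756933, minus strand).
Sema3c: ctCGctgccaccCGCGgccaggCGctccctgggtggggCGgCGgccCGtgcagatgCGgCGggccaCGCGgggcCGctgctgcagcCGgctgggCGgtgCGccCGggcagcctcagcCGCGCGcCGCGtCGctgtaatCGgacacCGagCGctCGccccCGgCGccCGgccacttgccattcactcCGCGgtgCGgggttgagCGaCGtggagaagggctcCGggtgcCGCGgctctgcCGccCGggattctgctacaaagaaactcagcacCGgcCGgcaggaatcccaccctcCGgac
Sema3e: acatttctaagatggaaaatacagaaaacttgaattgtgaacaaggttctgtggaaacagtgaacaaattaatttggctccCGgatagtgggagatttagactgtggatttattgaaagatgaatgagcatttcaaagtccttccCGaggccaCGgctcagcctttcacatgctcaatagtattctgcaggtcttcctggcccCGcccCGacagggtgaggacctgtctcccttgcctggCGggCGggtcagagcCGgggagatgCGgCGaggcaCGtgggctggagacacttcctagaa
Sema3g: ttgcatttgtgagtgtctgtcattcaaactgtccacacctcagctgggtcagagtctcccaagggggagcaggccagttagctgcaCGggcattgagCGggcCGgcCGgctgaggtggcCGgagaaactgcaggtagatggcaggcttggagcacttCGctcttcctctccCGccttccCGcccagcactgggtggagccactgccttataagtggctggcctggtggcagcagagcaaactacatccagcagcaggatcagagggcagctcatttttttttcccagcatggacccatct
Sema3a: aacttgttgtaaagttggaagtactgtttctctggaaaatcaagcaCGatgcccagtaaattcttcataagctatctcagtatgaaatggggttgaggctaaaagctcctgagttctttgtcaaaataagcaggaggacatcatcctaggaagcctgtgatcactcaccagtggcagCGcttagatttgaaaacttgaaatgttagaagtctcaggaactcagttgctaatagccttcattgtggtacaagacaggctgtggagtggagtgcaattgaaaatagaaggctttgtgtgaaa
Sema4d: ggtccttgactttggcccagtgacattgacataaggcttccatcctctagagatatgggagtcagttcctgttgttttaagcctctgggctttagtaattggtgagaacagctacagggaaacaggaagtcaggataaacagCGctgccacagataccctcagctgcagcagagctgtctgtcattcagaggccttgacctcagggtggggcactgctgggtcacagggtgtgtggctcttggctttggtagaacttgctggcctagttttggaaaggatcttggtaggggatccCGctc

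The Sema3c window held 42 CG dinucleotides and lay in a region with a fold enrichment of 22.8 with GLI1, 18.5 in D7 control and 13.3 at D5. Fold enrichment is the authors' value for a peak, its height over the expected background, and a region takes the highest fold of its peaks. The Sema3e window held 11, the Sema3g window 8 and the Sema3a and Sema4d windows 2 each. Among the 37 windows, 26 (70.3%) overlapped a region with GLI1, against 56.7% of the 21263 windows of all genes. In D7 control 24 (64.9%) did, against 55.3% of all windows, and at D5 24 (64.9%) did, against 53.0%. Of the 37, 22 were open in all 3 lists and 10 in none. The 27 windows open in any list had a median of 23.0 CG dinucleotides, against 4 for the 10 that were open in none, and the same medians over all genes were 22 and 3.

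A further 4 windows are printed for the letters they share with the GLI binding consensus GACCACCCA, read on the opposite strand as TGGGTGGTC. None of the 37 windows held the 9 letters exactly on either strand, as 38 of all 21263 windows (0.179%) did. With 1 mismatch allowed, 4 of 37 (10.8%) held a match, against 6.71% of all windows, so the members' share is near that of all genes. Capitals mark the matches in Plxna2 (chr1:194619579-194619878, plus strand), Sema4b (chr7:80186620-80186919, plus strand), Sema6b (chr17:56140294-56140593, minus strand) and Sema6c (chr3:95160170-95160469, plus strand).
Plxna2: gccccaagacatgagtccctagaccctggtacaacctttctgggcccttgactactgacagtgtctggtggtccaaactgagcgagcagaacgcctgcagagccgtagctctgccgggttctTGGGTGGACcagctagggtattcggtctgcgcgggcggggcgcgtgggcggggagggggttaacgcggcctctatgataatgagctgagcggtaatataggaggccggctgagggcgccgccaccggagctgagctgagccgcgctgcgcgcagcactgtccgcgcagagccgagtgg
Sema4b: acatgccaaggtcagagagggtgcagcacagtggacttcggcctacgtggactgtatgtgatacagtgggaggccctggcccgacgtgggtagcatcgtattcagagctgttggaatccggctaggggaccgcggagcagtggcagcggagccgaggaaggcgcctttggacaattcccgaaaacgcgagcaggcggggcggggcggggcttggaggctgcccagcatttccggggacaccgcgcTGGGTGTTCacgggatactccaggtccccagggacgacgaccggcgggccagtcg
Sema6b: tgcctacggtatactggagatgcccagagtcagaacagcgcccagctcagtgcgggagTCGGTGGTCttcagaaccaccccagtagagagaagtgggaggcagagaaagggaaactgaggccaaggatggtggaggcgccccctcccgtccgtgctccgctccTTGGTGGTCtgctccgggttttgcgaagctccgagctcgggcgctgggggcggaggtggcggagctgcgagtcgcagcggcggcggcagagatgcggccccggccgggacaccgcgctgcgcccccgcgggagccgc
Sema6c: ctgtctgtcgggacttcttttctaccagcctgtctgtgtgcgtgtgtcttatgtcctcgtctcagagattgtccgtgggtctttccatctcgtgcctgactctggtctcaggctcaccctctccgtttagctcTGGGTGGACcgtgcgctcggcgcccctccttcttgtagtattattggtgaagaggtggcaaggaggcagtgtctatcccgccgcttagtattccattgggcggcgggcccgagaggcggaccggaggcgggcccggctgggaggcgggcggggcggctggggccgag

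Counted in bases relative to the gene start, the match began at -128 in Plxna2, -117 in Sema6c and -5 in Sema4b, and Sema6b held a pair of them. All 4 windows were open in both D7 lists, with GLI1 to D7 control fold ratios between 1.13 and 1.30. Of the 37 windows, 26 were open with GLI1 and 24 in D7 control. Windows without a match had ratios from 0.418 at Sema4d to 3.23 at Sema3e, with 1.17 at Plxnb1 and 1.23 at Sema3c, so the 4 did not stand apart. Their folds were 26.3 with GLI1, 20.7 in D7 control and 5.28 at D5 for Plxna2, and 39.3 with GLI1, 34.9 in D7 control and 12.3 at D5 for Sema6c. At Sema4b they were 19.5 with GLI1, 14.9 in D7 control and 10.1 at D5, and at Sema6b 6.32 with GLI1 and 5.04 in D7 control, with no region at D5. The GC box GGGCGG, searched on both strands, was in 73.0% of the 37 windows and 46.2% of all windows. A match in letters is a description of the sequence and no measure of binding.

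The lists differ in how they were called, which bears on every comparison with D5. The background solved from the folds was 4.70 reads per base in the GLI1 list and 4.56 in the D7 control list, against 0.376 at D5. The shortest peaks were 200 bp in both D7 lists and 124 bp at D5. In both D7 lists 100% of folds are whole steps of 1 read at the summit, within 0.02 of a step, against 8.02% at D5. A single background thus did not describe the D5 folds, and 0.376 is no measure of depth there. The number of reads covering a summit is therefore given for the D7 lists only, and folds are compared between the D7 lists and set side by side with D5. Member regions had a median fold of 4.56 with GLI1 (5.44 over all its regions), 5.04 in D7 control (6.12 over all) and 5.35 at D5 (5.81 over all). Near the distance limit, the farthest members lay 91.5 kb from Nrp1 with GLI1 (fold 3.51), 99.1 kb from Plxnc1 in D7 control (3.42) and 89.5 kb from Sema3e at D5 (fold 10). The nearest peaks beyond the limit lay 103 kb from Sema3e with GLI1 (fold 4.56), 101 kb from Sema3e in D7 control (4.50) and 107 kb from Nrp1 at D5 (4.49).

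The cells' label was set against the accessibility of marker genes, which is not a transcript level. All 10 cardiac progenitor markers had a region in each list, and so did all 6 neural and all 4 endoderm markers, while endothelial markers had one for 7 of 7 genes with GLI1, 7 of 7 in D7 control and 6 of 7 at D5. Presence of a region therefore did not separate these cell types from each other. Pluripotent markers had one for 3 of 5 genes with GLI1, 4 of 5 in D7 control and 4 of 5 at D5. Paraxial mesoderm markers had one for 3 of 4 genes with GLI1, 3 of 4 in D7 control and 4 of 4 at D5. Of the endothelial markers' regions, 21 of 42 with GLI1 had no counterpart in D7 control (39.0% of all GLI1 regions had none), and 13 of 31 in D7 control had none with GLI1 (31.6% of all). The endoderm markers were the most one-sided of the 6 marker lists, with 16 of 29 GLI1 regions absent in D7 control, 11 of them at Foxa2, and 0 of 12 D7 control regions absent with GLI1. For cardiac progenitor markers the counts were 15 of 39 and 14 of 39. The part of other cell types in the results was not tested. Near the Gli1 gene 6 of 8 regions with GLI1 were absent in D7 control, which had 4 regions, and none of those 4 was absent with GLI1. GLI1 was switched on from the construct, so counts near the Gli1 gene itself do not measure the induction or check the labels. The marker counts are a description, and since presence of a region did not separate the cell types, they cannot check the labels.

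All genes but Plxnb3, which had no region in any list, were assigned at least 1 region. A region was present near 30 genes with GLI1, and near 28 in D7 control and 28 at D5. Sema3b and Sema3g had regions with GLI1 and none in D7 control or at D5. The numbers per gene followed gene length: across the 31 genes, which share the same libraries and the same nearest-gene rule, length and the number of regions in the 3 lists together had a Spearman rho of 0.88. The longest, Sema6d at 578 kb, had 30 loci over the 3 lists, and Plxna3, at 16.4 kb, had 1.

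**Figure D1:**
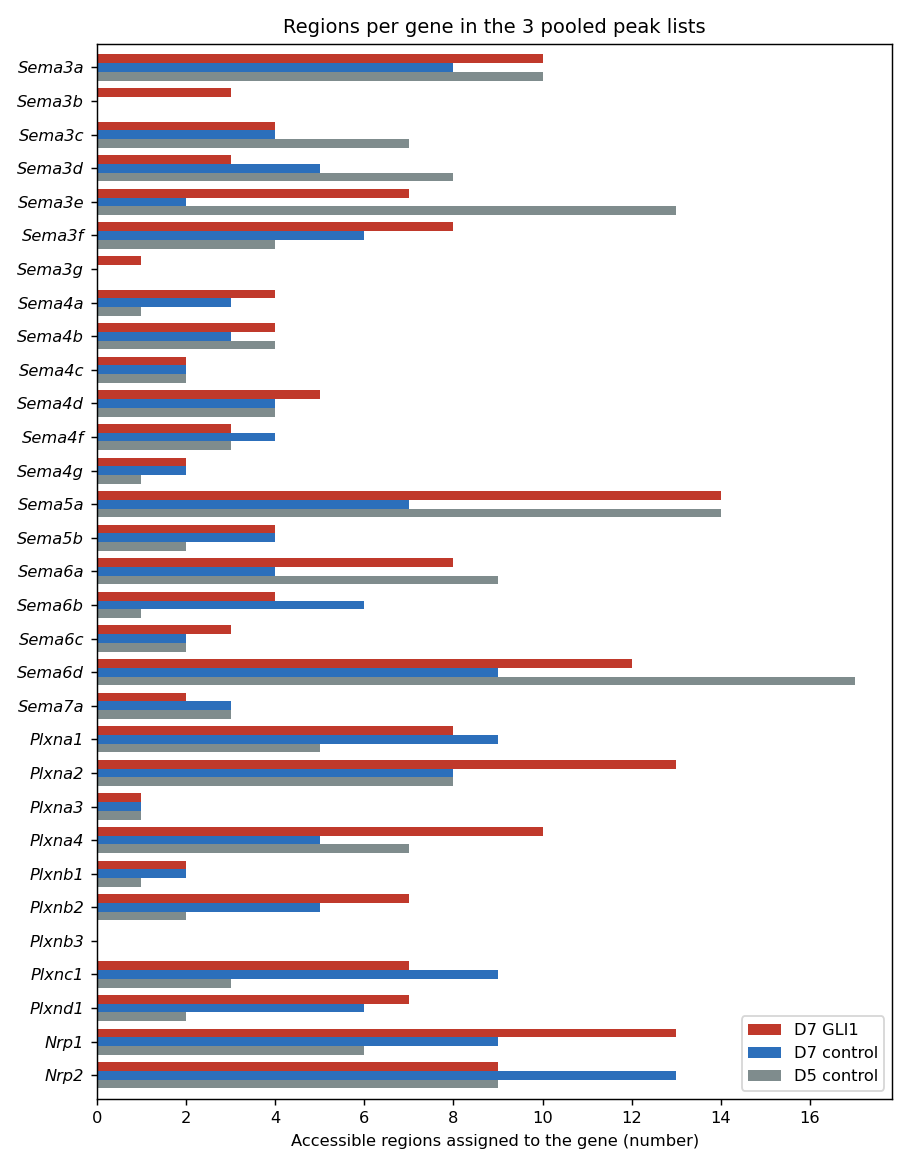
Number of regions assigned to each of the 31 genes in the D7 GLI1, D7 control and D5 lists, with genes grouped by role. Sema6d had 12 regions with GLI1, 9 in D7 control and 17 at D5, and Plxnb3 had none in any list.

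Merging the regions of the 3 lists gave 311 loci. Of these, 43 (13.8%) were present in all 3 lists, against 22.8% of the 71159 loci of the whole series. A further 77 were found with GLI1 alone, 51 in D7 control alone and 80 at D5 alone, and 40 were shared by the D7 lists without D5. The loci differed by place: 84.6% of the 26 loci at a gene start were present in all 3 lists, against 6.84% of the 190 inside a gene and 4.49% of the 89 outside. Regions within 1 kb of a gene end made up 17.2% of member regions with GLI1 (30.6% of all GLI1 regions), 17.2% in D7 control (32.6% of all) and 15.4% at D5 (32.8% of all).

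GLI1 cells were set against D7 control cells to ask which sites differ after GLI1 induction. A region of the GLI1 list with no base in common with a D7 control region is called gained, and a D7 control region with none in common with a GLI1 region is called lost. Of the 180 GLI1 regions 90 were gained (50%, interval 42.8 to 57.2), against 39.0% of all GLI1 regions, and of the 145 D7 control regions 58 were lost (40%, interval 32.4 to 48.1), against 31.6% of all. Both shares lay above those of the whole lists. Away from gene ends they were nearer to it: over 1 kb from any gene end, 81 of 149 GLI1 regions (54.4%, interval 46.4 to 62.2) were gained against 50.7% of all, and 58 of 120 D7 control regions (48.3%) were lost against 43.5%. Within 1 kb of a gene end 9 of 31 GLI1 regions (29.0%, interval 16.1 to 46.6) were gained, against 12.2% of all such regions. These 9 were weak, with folds of 2.98 to 5.44 with GLI1. Several lay next to a region present in all 3 lists, as on either side of the Sema3c start region (chr5:17574167-17575409). The one at Sema6a (chr18:47371104-47371528) lay beside the region at chr18:47366207-47370983. The share thus need not count separate sites. Of the D7 control regions there 0 of 25 were lost (interval up to 13.3%), against 7.03% of all.

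Most of these regions were weak. Only 19 of the 180 GLI1 regions (10.6%) were gained with a fold of at least 5.04, which is 2 times the lowest fold of the D7 control list, against 9.05% of all. Of the D7 control regions 16 of 145 (11.0%) were lost with a fold of at least 4.91, set in the same way, against 7.75% of all. The surplus of gained over lost regions depended on the lengths of the lists: with each list held to its 48177 strongest peaks there were 45 gained and 43 lost member regions. By gene, 15 had more gained than lost regions, 6 had more lost and 10 had equal numbers.

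**Figure D2:**
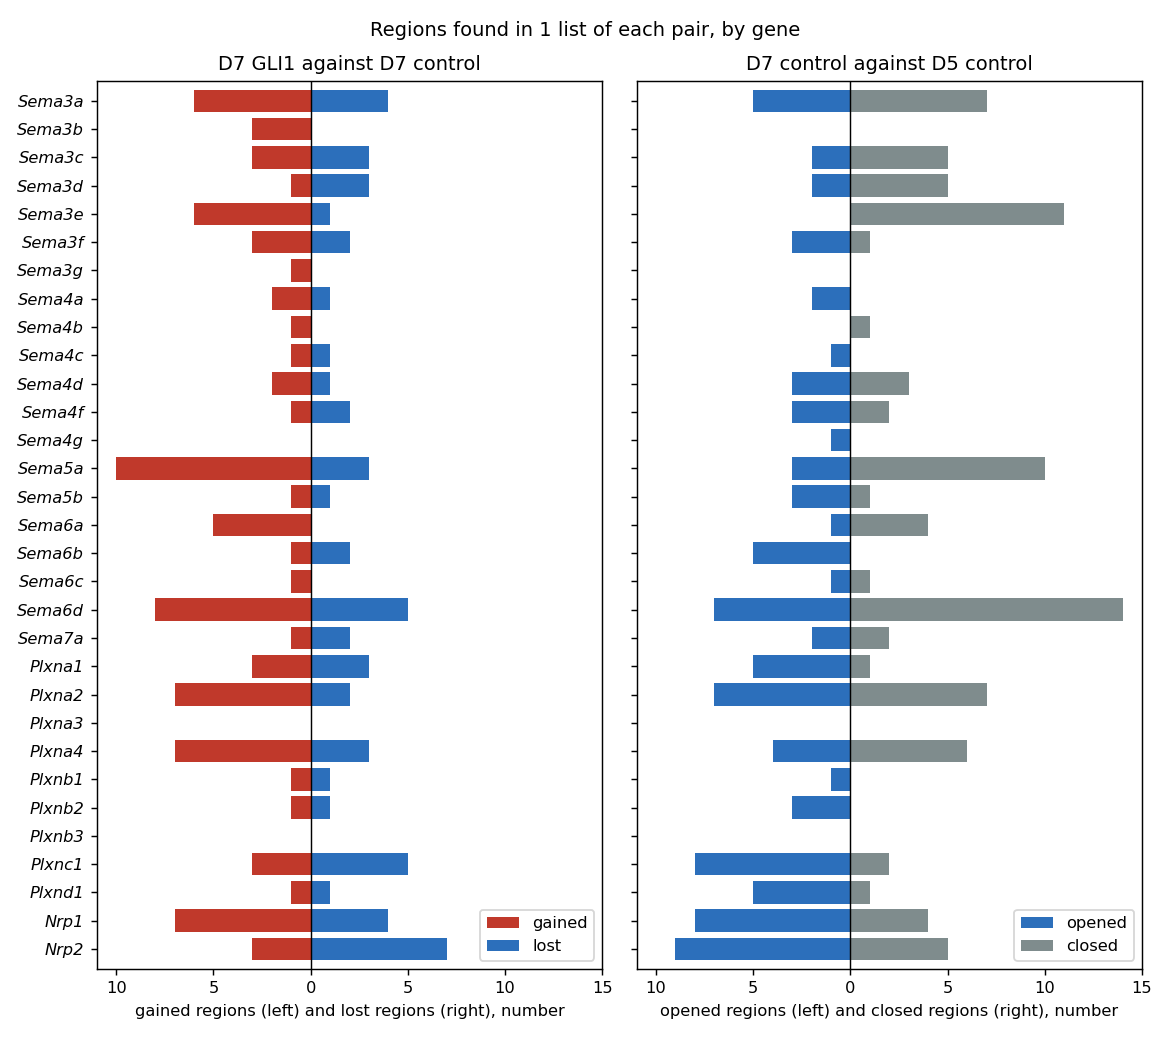
Gained (left of 0) and lost (right of 0) regions per gene for D7 GLI1 against D7 control, and opened (left) and closed (right) regions for D7 control against D5. Sema5a had the most gained regions (10) and Nrp2 the most lost (7), and Sema6d (14) and Sema3e (11) had the most closed ones.

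The secreted class 3 semaphorins had 23 gained regions of 36 with GLI1 (63.9%) and 13 lost of 25 in D7 control (52.0%). Over all regions the shares were 39.0% gained and 31.6% lost. Over 1 kb from any gene end, where most member regions lay, they were 50.7% and 43.5% of all, which is nearer to the class 3 shares. Shares of single classes and families were not split by distance from a gene end. Sema3e, the ligand of Plexin-D1 that repels endothelial cells, had the largest net of the 7 genes, with 6 gained of 7 regions with GLI1 and 1 lost of 2 in D7 control. Its net of 5 gained regions ranged between 3 and 6 over the alternatives tried. At the Sema3e start (chr5:14025090-14025907), which holds part of the window printed above, the fold was 15.1 with GLI1, 4.68 in D7 control and 7.74 at D5. In reads at the summit this was 85 with GLI1 (exact Poisson interval 67.9 to 105) and 25 in D7 control (16.2 to 36.9). The fold was 3.23 times as high with GLI1, which ranked 3 among the ratios of the 83 shared member loci. The intervals did not overlap, but they hold counting error only, and a site with an extreme ratio is picked from many.

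Inside Sema3e, 23.8 kb past its start, a region at chr5:14048701-14049299 had a fold of 11.9 with GLI1 and 5.35 at D5 and was absent in D7 control. A region 65.4 kb before the gene (chr5:13959616-13959999) had 8.78 with GLI1, none in D7 control and 13.9 at D5, which was the highest member fold at D5. Another, 42.4 kb before it, had 3.86 with GLI1, none in D7 control and 3.98 at D5. Each of the 3 was thus present with GLI1 and at D5 and missing in D7 control. The other 3 gained regions of Sema3e, at folds of 3.69 to 4.74, were absent at D5. Of these, chr5:14024582-14024919 lay just before the start region, which was present at D5. Another, chr5:14048373-14048572, lay just before the region at chr5:14048701-14049299, also present at D5. They need not be separate sites.

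Among the other secreted ligands, Sema3a, a repellent of axons that acts through neuropilin-1, had 6 gained and 4 lost regions, a net that reversed to -2 with lists of equal length. Sema3c, which guides cardiac neural crest cells to the outflow tract, had 3 of each, and its start region had folds of 22.8 with GLI1, 18.5 in D7 control and 13.3 at D5. Sema3d had 1 gained region and 3 lost ones. Its start region at chr5:12383036-12384220 had 12.1 with GLI1, 9.72 in D7 control and 9.88 at D5, although the D7 control region did not reach into the start window, and 1 of its lost regions, 55.3 kb before the gene, had 8.64 in D7 control. Sema3f, a ligand of neuropilin-2, had 3 gained and 2 lost. At chr9:107698449-107700052 inside Sema3f the fold was 11.8 with GLI1, 3.60 in D7 control and 4.81 at D5, with 66 summit reads with GLI1 (51.0 to 84.0) and 19 in D7 control (11.4 to 29.7). A neighbouring region at chr9:107696953-107697718 went the other way, with none with GLI1, 8.82 in D7 control and 3.41 at D5. Sema3b had 3 regions and Sema3g 1, at folds of 3.51 to 4.21, with GLI1 and none in the other lists. Such folds are below 2 times the lowest fold of the D7 control list.

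**Figure D3:**
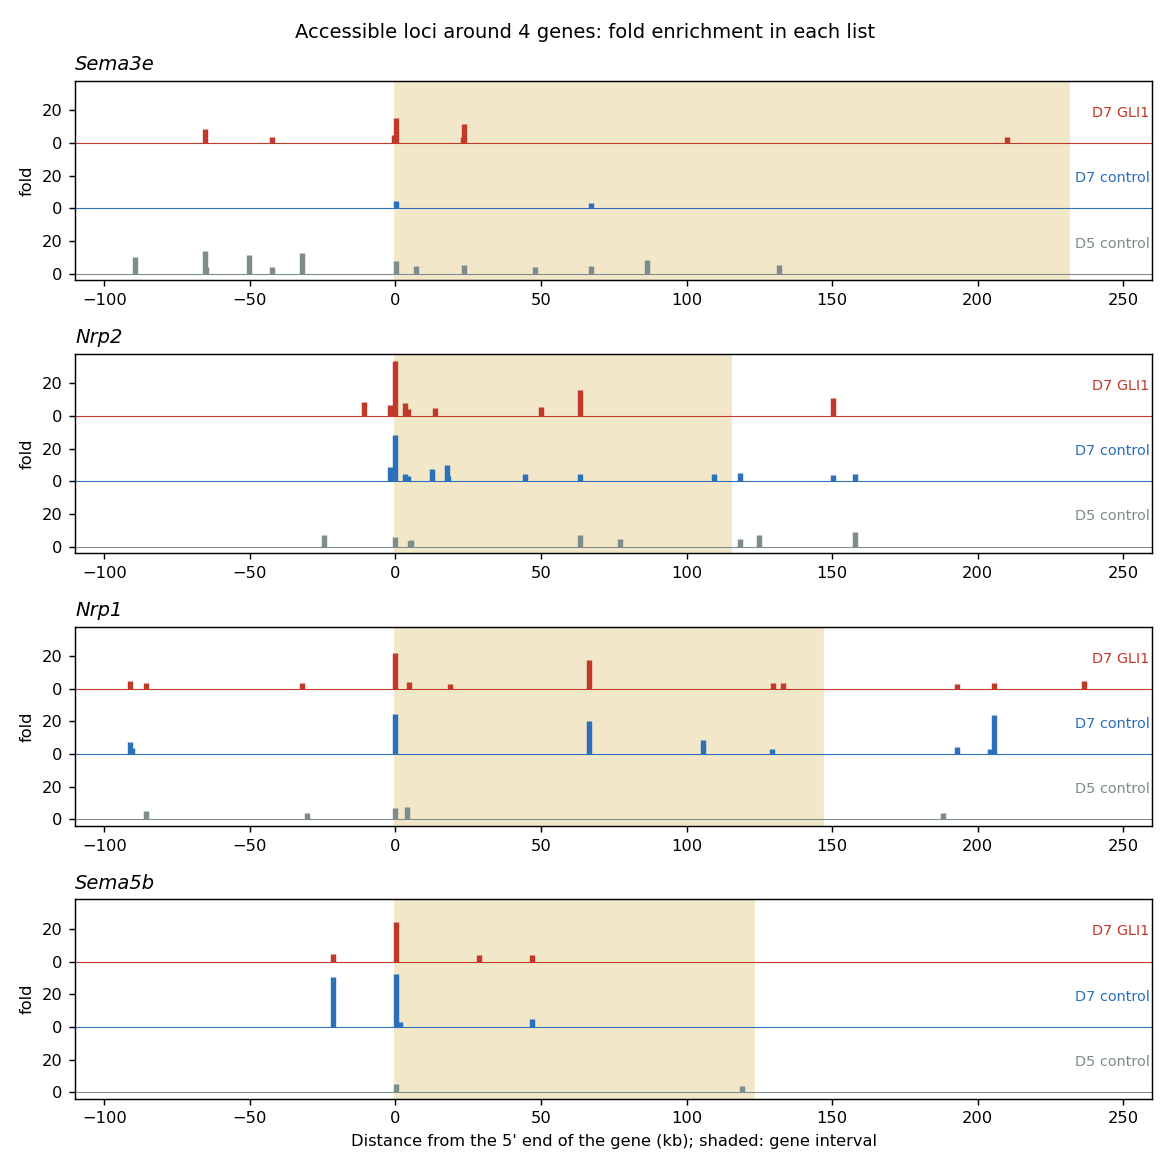
Loci of the 3 lists around Sema3e, Nrp2, Nrp1 and Sema5b, placed by distance in kb from the gene's 5′ end, with fold enrichment as bar height, 1 row per list and the gene shaded. Sema3e had 7 regions with GLI1, 2 in D7 control and 13 at D5, and Nrp2 had 9 with GLI1, 13 in D7 control and 9 at D5, and the short GLI1 bars outside Nrp1 (3.69) and Sema5b (4.56) stand above tall D7 control bars (24.1 and 30.4).

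The membrane-bound semaphorins of class 4 had 7 gained of 20 GLI1 regions (35.0%) and 5 lost of 18 D7 control regions (27.8%). Class 5 had 11 gained of 18 (61.1%) and 4 lost of 11 (36.4%). Class 6 had 15 gained of 27 (55.6%) and 7 lost of 21 (33.3%). Of all regions 39.0% were gained and 31.6% lost, and of those over 1 kb from any gene end 50.7% and 43.5%. Sema5a, a large ligand with thrombospondin repeats, had the most gained regions of any member, 10 of 14 with GLI1, and 3 lost of 7 in D7 control. That net of 7 came to 0 with lists of equal length. The region at chr15:32328428-32329090 inside Sema5a had a fold of 12.3 with GLI1 and 3.96 in D7 control and was absent at D5. At the Sema5a start the folds were 41.8 with GLI1, 31.9 in D7 control and 9.93 at D5. Sema6a, a ligand of Plexin-A2 and Plexin-A4, had 5 gained and 0 lost regions. It also held the highest member fold of the GLI1 list, 56.7 with GLI1, 42.7 in D7 control and 7.75 at D5, in a region just inside one end of the gene. Sema6d, a ligand of Plexin-A1, had 8 gained and 5 lost regions.

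The gained region with the highest fold of all members lay inside Sema6d, at chr2:124502026-124502707, with 12.1 with GLI1 and no region in D7 control or at D5. It had 68 reads at its summit with GLI1 (interval 52.8 to 86.2). A second Sema6d region, chr2:124609614-124611201, had 43.0 with GLI1, 23.9 in D7 control and 8.11 at D5. The net of Sema6d was 3 gained, 0 with lists of equal length and -3 when peaks were assigned by the nearest gene end. Among class 4 ligands, which include the Plexin-B ligands Sema4c and Sema4d, the starts ranged widely. The highest folds were 49.7 with GLI1, 53.3 in D7 control and 6.61 at D5 for Sema4c, and 50 with GLI1, 38.5 in D7 control and 10.7 at D5 for one Sema4b start. The Sema4g start had 19.8 with GLI1, 14.2 in D7 control and 7.75 at D5, and that of Sema4f had 4.56 with GLI1, 5.94 in D7 control and 10.2 at D5. None of the 4 Sema4a start windows was open in any list. Of the 3 Sema4d start windows given 1 was open, in both D7 lists, with 4.21 with GLI1 and 10.1 in D7 control. This window holds 2 CG dinucleotides. No window was given at the 5′ end of the whole Sema4d gene. A region there (chr13:51792193-51794221) was present in all 3 lists, with 12.6 with GLI1, 7.74 in D7 control and 10 at D5. Sema4a had 2 gained and 1 lost, Sema4f 1 gained and 2 lost, and Sema4g none of either.

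At Sema5b, a region 21.8 kb outside the gene (chr16:35518763-35520488) had the lowest ratio of the GLI1 to the D7 control fold among members. Its fold was 4.56 with GLI1 and 30.4 in D7 control, with no region at D5. The summit held 25 reads with GLI1 (16.2 to 36.9) and 168 in D7 control (144 to 195). Sema7a, which is anchored by a lipid and binds Plexin-C1 and integrins, had 1 gained and 2 lost regions. Its start region had 19.7 with GLI1, 15.8 in D7 control and 6.39 at D5.

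**Figure D4:**
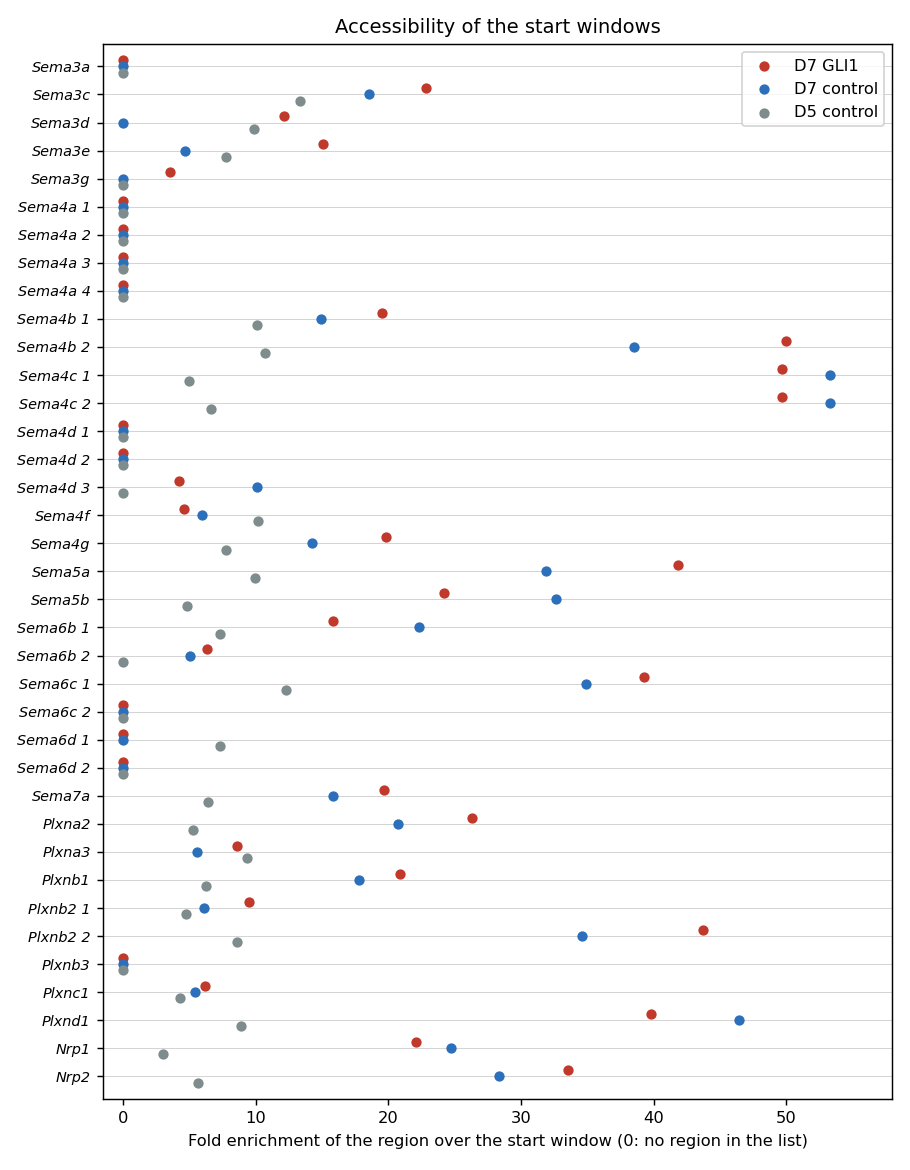
Fold enrichment of the region overlapping each of the 37 RefSeq start windows in the 3 lists, with 1 row per window. 22 windows had a region in all 3 lists, and the Sema3e window shows 15.1 with GLI1, 4.68 in D7 control and 7.74 at D5.

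The A plexins, receptors that pair with neuropilins for class 3 ligands and bind class 6 ligands directly, had 17 gained and 8 lost regions. These were 53.1% of 32 GLI1 regions and 34.8% of 23 D7 control regions, against 39.0% and 31.6% of all. Of all regions over 1 kb from any gene end, 50.7% were gained and 43.5% lost. Plxna2, which marks cardiac neural crest in the mouse, had 7 gained and 2 lost, and Plxna4 had 7 gained and 3 lost, while Plxna1 had 3 of each. Within Plxna2 single sites differed in both directions. A region at chr1:194756026-194756740 had 9.65 with GLI1 and none in the other lists, and one at chr1:194719877-194720794 had 8.60 with GLI1 and 3.24 in D7 control. In contrast, chr1:194629112-194630078 had 9.13 with GLI1 and 23.6 in D7 control, and chr1:194677772-194678360 had 3.69 with GLI1 and 11.9 in D7 control. Neither of these was present at D5. A Plxna2 region 9.03 kb before the gene (chr1:194610402-194611190) had 6.32 with GLI1, none in D7 control and 11.1 at D5.

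Inside Plxna4 a region at chr6:32327108-32328397 had 4.56 with GLI1 and 16.4 in D7 control, and the gained region at chr6:32402682-32403145 had 7.55 with GLI1. The B plexins, receptors of class 4 semaphorins, had 2 gained of 9 GLI1 regions (22.2%, against 39.0% of all). They had 2 lost of 7 D7 control regions (28.6%, against 31.6% of all). The Plxnb2 start had 43.7 with GLI1, 34.6 in D7 control and 8.61 at D5, and that of Plxnb1 had 20.9 with GLI1, 17.8 in D7 control and 6.27 at D5. Plxnc1, the receptor of Sema7a, had 3 gained and 5 lost regions. Its region at chr10:94809690-94810408 had 3.34 with GLI1 and 12.2 in D7 control. Plxnd1, the endothelial receptor of Sema3e, had 1 of each. Its start was among the strongest member sites, with 39.8 with GLI1, 46.4 in D7 control and 8.85 at D5. The ligand's start thus differed by 3.23 times between the D7 lists and the receptor's by 0.858 times.

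The neuropilins had 10 gained regions of 22 with GLI1 and 11 lost of 22 in D7 control. Nrp1, the co-receptor for Sema3a and VEGF-A, had 7 gained and 4 lost, and Nrp2, which binds Sema3f and VEGF-C, had 3 gained and 7 lost. With equal list lengths the nets were -1 for Nrp1 and -2 for Nrp2. A site 58.5 kb outside Nrp1 (chr8:128563511-128564675) had 3.69 with GLI1 and 24.1 in D7 control and was absent at D5. Its summit held 20 reads with GLI1 (12.2 to 30.9) and 133 in D7 control (111 to 158). The lost region with the highest fold of all members lay inside Nrp2 (chr1:62720771-62721165), with no region with GLI1 and 10.1 in D7 control. Also inside Nrp2, chr1:62766581-62767186 had 15.8 with GLI1, 4.68 in D7 control and 7.20 at D5. It held 89 summit reads with GLI1 (71.5 to 110) and 25 in D7 control (16.2 to 36.9), at a ratio of 3.38, the highest among shared member loci. The starts of both genes were open in all lists. The Nrp1 start had 22.1 with GLI1 and 24.7 in D7 control. At D5 the region over its start window had 3.03, and another in the same locus (chr8:128356722-128360139) had 7.00. The Nrp2 start had 33.5 with GLI1, 28.3 in D7 control and 5.61 at D5.

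Both D7 lists held a region at 83 member loci, where folds could be compared. The ratio of the GLI1 to the D7 control fold was at least 1.5 at 14 loci (16.9%), against 13.6% of all 24943 shared loci, and at most 1/1.5 at 13 (15.7%), against 13.7%. These shares are near the background. The median ratio was 1.11 for the members and 1.06 for all shared loci. The background of the GLI1 list was 1.03 times that of the D7 control list, which acts on every ratio.

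**Figure D5:**
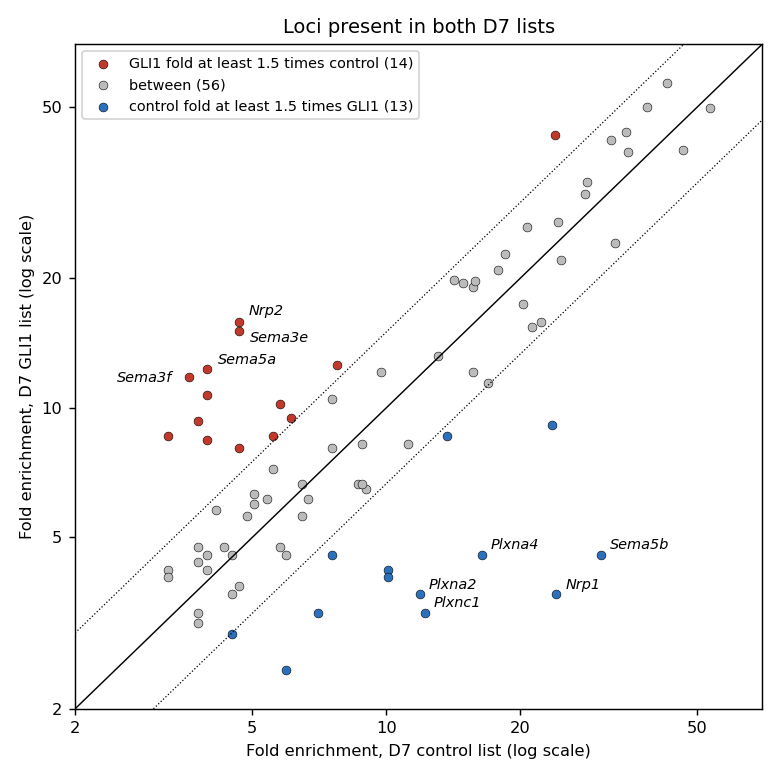
Fold enrichment in the D7 GLI1 list (vertical, log scale) against the D7 control list (horizontal, log scale) at the 83 member loci present in both, with lines at equality and at a ratio of 1.5 either way. Sites of Nrp2, Sema3f, Sema3e and Sema5a lie highest above equality, and sites of Sema5b and Nrp1 lie farthest below it.

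D7 control cells were set against D5 cells to ask which sites differ over those days without GLI1. A D7 control region absent at D5 is called opened, and a D5 region absent in D7 control is called closed. Of the 145 D7 control regions 94 were opened (64.8%, interval 56.8 to 72.1), against 55.0% of all, and of the 149 D5 regions 93 were closed (62.4%, interval 54.4 to 69.8), against 50% of all. Over 1 kb from any gene end the shares were 73.3% opened against 72.1% of all, and 72.2% closed against 69.1%, so members and all regions differed little there. The form of the calls differed between the days, and depth, which is unknown, may have differed too. Neither can be told apart from time.

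Semaphorins had 44 opened of 78 D7 control regions (56.4%) and 67 closed of 105 D5 regions (63.8%). Plexins had 33 opened of 45 (73.3%) and 17 closed of 29 (58.6%). Neuropilins had 17 opened of 22 (77.3%) and 9 closed of 15 (60%). Over all regions 55.0% were opened and 50% closed. The closed shares of the classes were thus similar, and the counts also follow how many regions each class had in each list. The difference between the classes in opened minus closed regions was not tested. With peaks of −log10 q of at least 5 alone, opened minus closed summed to 15 over the semaphorins, against -23 with all peaks. The plexins had 19 against 16. The other alternatives kept the signs of both classes. Their sums ran from -39 (equal list lengths) to -13 (nearest gene end) over the semaphorins. Over the plexins they ran from 5 (equal list lengths) to 27 (peaks one by one). The closed ones lay mainly at Sema6d (14), Sema3e (11), Sema5a (10), Sema3a (7) and Plxna2 (7). Long genes had more of them: the Spearman rho between gene length and closed regions was 0.90 over the 31 genes. At Sema3e 11 of 13 D5 regions were closed and none opened. Its strongest closed regions had D5 folds of 13.9, 12.9, 11.5 and 10, and lay 65.4, 32.0, 50.4 and 89.5 kb before the gene. Plxnc1 had 8 opened and 2 closed regions, Plxnd1 5 and 1, Nrp1 8 and 4, and Nrp2 9 and 5. The opened regions with the highest D7 control folds were the Sema5b site (4.56 with GLI1, 30.4 in D7 control), the Nrp1 site (3.69 with GLI1, 24.1 in D7 control) and the Plxna2 site (9.13 with GLI1, 23.6 in D7 control). In all 3 the fold was lower with GLI1, but they were picked for a high D7 control fold. A lower fold in the other D7 list can follow from that choice alone, so no direction is read from them. Over the 83 member loci shared by the D7 lists the median ratio of the GLI1 to the D7 control fold was 1.11.

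GLI1 cells were also compared with D5 cells directly. Of the 180 GLI1 regions 125 (69.4%, interval 62.4 to 75.7) were absent at D5, against 56.9% of all, and of the 149 D5 regions 88 (59.1%, interval 51.0 to 66.6) were absent with GLI1, against 46.7% of all. This comparison shares the D5 list with the previous one. Of the 93 closed D5 regions 13 (14.0%, interval 8.35 to 22.5) were present with GLI1, against 12.5% of all closed regions. These lay at Sema3e (3), Sema3a (2), Sema5a (2) and 6 other genes (1 each), and without Sema3e the share was 12.2%. Conversely, 8 of the 88 D5 regions absent with GLI1 (9.09%) were present in D7 control, against 6.42%. Among the 90 gained regions 13 (14.4%) overlapped a D5 region, against 13.5% of all gained ones, and among the 58 lost 7 (12.1%) did, against 8.95%. These shares are near the background, and with peaks of −log10 q of at least 5 alone they were 4.84% of gained and 5.13% of lost member regions.

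The partners of the system were described by their counts in the same way. Of 14 co-receptors and partners, 10 had a region with GLI1 and 12 in D7 control. Of their 43 GLI1 regions 21 were gained (48.8%, against 39.0% of all). Among their 39 D7 control regions 17 were lost (43.6%, against 31.6% of all). Flt1, a VEGF receptor, had 6 gained and 2 lost, with a highest fold of 8.25 with GLI1 and 22.5 in D7 control. Kdr, the main signalling receptor for VEGF-A and a partner of neuropilin-1, had 1 gained and 3 lost, and a highest fold of 19.1 with GLI1 and 23.2 in D7 control. The adhesion molecule Chl1 had 5 gained and 1 lost. The 5 VEGF-family ligands had 7 gained of 18 and 7 lost of 18 regions, 38.9% each, against 39.0% and 31.6% of all. Of these, Vegfa had 2 gained and 3 lost and Vegfc 3 gained and 0 lost. Vegfa had 8 of its 9 D7 control regions opened and its highest fold was 43.5 with GLI1 and 29.3 in D7 control.

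The 29 signal transducers behind plexins all had a region in both D7 lists, with 35 gained of 101 with GLI1 (34.7%) and 31 lost of 100 in D7 control (31.0%). These shares lie near or below the 39.0% and 31.6% of all regions. Fyn, a kinase downstream of Plexin-A receptors, had 1 gained and 7 lost regions, and Farp1, a guanine nucleotide exchange factor, had 7 gained and 4 lost. The actin-oxidising enzyme Mical2 had 5 gained and 2 lost. Dpysl2, the CRMP protein that carries Sema3a signals to microtubules, had 2 of each, with a highest fold of 63.4 with GLI1 and 55.3 in D7 control.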

How the data were processed

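ATAC-seq libraries were pooled by group into 1 deposited peak list each. Per the submitters' processing notes, Bowtie2 2.3.2, SAMtools 1.5, Picard and MACS2 2.1.1 were used with mm10; their roles and settings are not given in the sources used here. Each deposited line holds the authors' fold (a ratio of the peak over background), −log10 p-value, −log10 q-value, score and summit offset. The score was not used. Summits were assigned to the nearest of 21887 RefSeq protein-coding genes (GRCm38.p6) within 100 kb. Peaks tied between Plxna1 and Gm40415 (2 with GLI1, 2 in D7 control and 1 at D5) were kept as Plxna1. Overlapping peaks of a list were merged, and regions sharing at least 1 base counted as shared. The background was solved from the folds and −log10 p-values as (reads + 1)/(background + 1), and the reads at a summit follow from it, with exact Poisson intervals. Intervals of shares are Wilson 95% intervals and, like those of reads, hold counting error alone. Total reads per library are unknown, and PCR copies cannot be told from separate molecules. Genes were all named, and single regions were the strongest gained, lost, opened and closed ones and those with the most extreme ratios. The members, lists and rules were chosen with earlier results of these data known. Overlap, threshold, list length, distance, assignment and merging were varied. The steps were tested on simulated lists, with Python 3.11.15, pandas 2.3.3 and scipy 1.17.1.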

Additional observations from a re-analysis of the deposited data

How the results depend on the processing

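The 10 shares given for the members were recomputed under 8 alternatives, and 2 of the shares and 2 of the alternatives were chosen after seeing the data. Of 80 values 65 moved by less than the 95% interval. With peaks of −log10 q of at least 5 alone, closed regions made up 46.6%, D5 regions absent with GLI1 45.2%, gained regions present at D5 4.84% and lost regions present at D5 5.13%. With lists of equal length, gained regions made up 38.5% and GLI1 regions absent at D5 57.3%. With peaks counted one by one, 35.1% were gained, 29.0% lost, 53.2% opened and 54.0% of GLI1 peaks absent at D5. Over 1 kb from any gene end, 48.3% were lost, 73.3% opened, 72.2% closed, 76.5% of GLI1 regions absent at D5 and 69.0% of D5 regions absent with GLI1. Leaving out Sema3e moved none of the 10 beyond its interval. The cause of these moves was not tested.

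Of 372 values of net regions per gene 275 stayed, 88 moved and 9 reversed. Opened minus closed reversed to 2 at Sema3a, 1 at Sema4b and 2 at Sema6a at −log10 q of at least 5, and to 1 at Sema3a with the nearest gene end. Gained minus lost reversed to -1 at Nrp1, -2 at Sema3a and -1 at Sema4d with equal list lengths, and to -2 at Sema3a and -3 at Sema6d with the nearest gene end. No paired analysis was possible because the libraries of a group were pooled into 1 list, which also means that leaving out single libraries was not an option. Absence from a list means no peak past the caller's threshold, not closed chromatin, and weak regions can cross it by counting error.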

Other observations

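Other guidance families were counted in the same lists, where 39.0% of all GLI1 regions were gained and 31.6% of all D7 control regions lost. Over 1 kb from any gene end these shares of all regions were 50.7% and 43.5%. Slits and robos, secreted repellents and their receptors, had 47 gained of 78 regions with GLI1 (60.3%) and 27 lost of 57 in D7 control (47.4%), with 6 of 7 genes having more gained than lost and none more lost. Slit2 had 6 gained and 1 lost, Robo1 14 and 8, and Robo2 10 and 6. Robo1 and Robo2 are long genes, of 1020 and 1560 kb. Netrins and their receptors had 38 gained of 78 (48.7%) and 22 lost of 63 (34.9%), with 6 gained and 1 lost at Unc5c. Ephrins and Eph receptors had 44 gained of 120 (36.7%) and 36 lost of 121 (29.8%), which are near the shares of all regions. Efnb2, the ephrin of arterial endothelium, had 4 gained and 0 lost, while Ephb2 had 4 gained and 10 lost. The semaphorin, plexin and neuropilin shares of 50% gained and 40% lost lay between those of the slit and ephrin families, and no test compares the families.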
